A study of Anas platyrhynchos with 6 samples.

Results

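The miR-200 family comprises miR-200a, miR-200b, miR-200c, miR-141 and miR-429. Its members were taken from the deposited tables by name, as every entry called miR-200, miR-200a, miR-200b, miR-200c, miR-141 or miR-429 (with or without a copy letter) after its species prefix, in any arm. This gave 36 of 1568 miRNA names, under 22 species prefixes, none of them the duck prefix, which 6 other names carry. Names with exactly the same reads in all 6 libraries are given once, which left 28 distinct profiles. The tables list names of many species, so a name such as dre-miR-141-3p (zebrafish) or mmu-miR-200a-3p (mouse) stands for duck reads that the authors counted under that entry.

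Small RNA was sequenced from the duodenum of prelaying Nonghu No. 2 ducks selected at 90 days of age. After a common period of floor rearing, the traditional breeding (TB) group stayed on the ground. The cage rearing (CR) group was moved into cages for a trial of 10 days. Both were given the same amount of food in the same surroundings, but the paper reports lower food intake and body weight in CR. Each group had 3 libraries, and the labels do not say whether a library came from 1 bird or from several, so p-values measure the spread between these libraries. The comparison asks which miRNAs of the duodenum differ after the move into cages. Libraries held 1500905 (CR replicate 2) to 11395209 reads (CR replicate 1) summed over all names, and values are in RPM, reads scaled so that each library sums to 1000000, so that 1 read was worth 0.666 RPM in the first and 0.0878 RPM in the second. The labels name intestinal epithelial cells, but a piece of duodenum was sampled, and the miRNAs miR-143, miR-145, miR-199a and miR-214 of smooth muscle and mesenchyme together had 93138 to 198333 RPM, against 24291 to 179483 RPM for miR-192, miR-194 and miR-215 of the intestinal epithelium. Almost all of the former sum was miR-143, at 90227 to 197456 RPM. In such bulk tissue, fewer cells of a type and less miRNA per cell cannot be told apart.

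The family is known as a mark of epithelial cells. It represses the transcription factors ZEB1 and ZEB2, which silence the gene of the adhesion protein E-cadherin, and so holds back the transition of epithelial to mesenchymal cells. A miRNA finds its targets through its seed, a short stretch near its 5′ end. miR-200b, miR-200c and miR-429 share one seed, miR-200a and miR-141 another that differs from it by a single base. In vertebrate genomes miR-200b, miR-200a and miR-429 lie side by side in one cluster, and miR-200c and miR-141 in mammals lie in another. The mature product of the family is mainly the 3p arm, cut from the 3′ side of the hairpin, and the 5p arm is usually the minor one.

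TB replicate 1 and CR replicate 2 stood apart from the other 4 libraries, one from each group. They also had the fewest reads summed over all names, 5708735 and 1500905, against 9014316 to 11395209 in the other 4. Whether depth has a part in the division was not tested. Of all 662 tested names (at least 10 reads in at least 3 libraries), 379 (57.3%) had both of these libraries above the other 4, and 144 (21.8%) had both below. Results on the family are therefore given with and without both. The 662 tested names held 447 distinct profiles. Shares of all tested names, here and below, count every name, whereas family counts are of distinct profiles. In the family, leaving out the 5p arms, which do not carry these seeds, both libraries were the highest in 5 of the 6 tested profiles of miR-200b, miR-200c and miR-429 and in 0 of the 4 of miR-200a and miR-141. Several of these profiles are names of one miRNA and can share reads. Among the 5p arms it was 3 of 3 for miR-200b and 0 of 3 for miR-200a.

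With each member under its most abundant name, miR-200b had the highest mean over the 6 libraries, although miR-200a was higher in 4 of them. Under its most abundant name, sha-miR-200b (the entry of the Tasmanian devil), it had 8991, 2972 and 2300.3 RPM in TB replicates 1 to 3. The CR replicates 1 to 3 had 3454, 6615 and 1366 RPM. TB replicate 1 and CR replicate 2 were high, CR replicate 3 was the lowest, and the groups overlapped. The TB mean was 4754 ± 3684 RPM and the CR mean 3812 ± 2643 RPM (SD, n = 3 each). By a two-sided exact permutation test p was 0.7, and 0.1 is the smallest that 3 libraries a group allow. By mean, this name ranked 25th among all distinct profiles of the tables.

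A second name of the same miRNA, mmu-miR-200b-3p, had 3314, 710.3 and 581 RPM in TB, against 809, 3197 and 343 RPM in CR. It was at 36.9% of sha-miR-200b in TB replicate 1 and 48.3% in CR replicate 2, and at 23.4% to 25.3% in the other 4 libraries. The names of miR-200b thus did not keep one proportion to each other across libraries. The near-identical entry bta-miR-200b (cattle) had 3265, 665 and 536 RPM in TB, against 764, 3164 and 319 RPM in CR. Reads under these names are uncertain as separate quantities, since the counting could have placed a read under several of them.

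For miR-200c, dre-miR-200c-3p was the only abundant name. It had 1914, 245 and 189 RPM in TB, against 313, 2217 and 132 RPM in CR, so that the highest library exceeded the lowest 16.8-fold. Again TB replicate 1 and CR replicate 2 were high, and the groups overlapped (TB 783 ± 980 RPM, CR 887 ± 1155 RPM, SD, n = 3 each, exact permutation test, two-sided, p = 0.7). The mature miR-200c of zebrafish is close in sequence to miR-200b, and these reads may not be separable from those of miR-200b. The distinct mammalian profile of hsa-miR-200c-3p, shared by the mml and rno entries, held 0, 0 and 3 reads in TB and 4, 2 and 1 reads in CR. The 0 reads allow up to 0.526 RPM in TB replicate 1 and 0.321 RPM in TB replicate 2.

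miR-429, the third miRNA of this seed, was counted mainly under xla-miR-429 (Xenopus laevis). Its values were 858, 233 and 248 RPM in TB, against 330.5, 1085 and 187 RPM in CR. The order of the libraries was close to that of miR-200b, with TB replicate 1 and CR replicate 2 above the other 4. The entry of the opossum, mdo-miR-429, was the one tested profile of this seed without that order, at 16.8, 15.95 and 19.9 RPM in TB, against 13.8, 18.7 and 12.0 RPM in CR. It thus lay at 1.96% of xla-miR-429 in TB replicate 1 and at 7.998% in TB replicate 3.

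miR-200a, of the other seed, was more even. Under ccr-miR-200a (common carp) it had 5278, 4279 and 3586 RPM in TB, against 4311, 3544 and 2611 RPM in CR, a 2.02-fold range. TB replicate 1 was the highest library and CR replicate 3 the lowest, while CR replicate 2 lay below all TB libraries. The groups overlapped through CR replicate 1, with a TB mean of 4381 ± 851 RPM and a CR mean of 3489 ± 852 RPM (SD, n = 3 each, exact permutation test, two-sided, p = 0.3). The names ola-miR-200a (medaka) and mmu-miR-200a-3p followed it closely, and mmu-miR-200a-3p was at 96.9% to 99.0% of ccr-miR-200a in every library. In contrast to the names of miR-200b, these names kept their proportion in TB replicate 1 and CR replicate 2.

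miR-141, which shares the seed of miR-200a, was counted under dre-miR-141-3p. It had 732, 978 and 923 RPM in TB, against 908, 970.1 and 788 RPM in CR. Its 1.34-fold range was among the narrowest of the tables, and on the scale of log2(RPM + 1) only 0.302% of all tested names had a smaller one. TB replicate 1, the highest library for miR-200a, was the lowest for miR-141. The entry is close in sequence to miR-200a, with the same limit on separating reads. The mammalian profile of mmu-miR-141-3p, which the mdo, mml and sha entries share, had 1 read in each TB library and 8, 2 and 0 reads in CR.

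The 5p arms of miR-200a and miR-200b also differed in this way. For miR-200a-5p, gga-miR-200a-5p (chicken) had 213, 201 and 177 RPM in TB, against 264, 215 and 127 RPM in CR. For miR-200b-5p, mmu-miR-200b-5p had 165, 13.8 and 15.9 RPM in TB, against 11.1, 422 and 8.40 RPM in CR, a 50.3-fold range between CR replicate 2 (634 reads) and CR replicate 3 (84 reads). The wide range rests on TB replicate 1 and CR replicate 2, and the other 4 libraries lay between 8.40 and 15.9 RPM. The other names of these arms differed by few reads, and the aca and gga entries of miR-200b-5p had identical reads. For miR-429-5p, 3 names held at most 8 reads in a library.

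**Figure D1:**
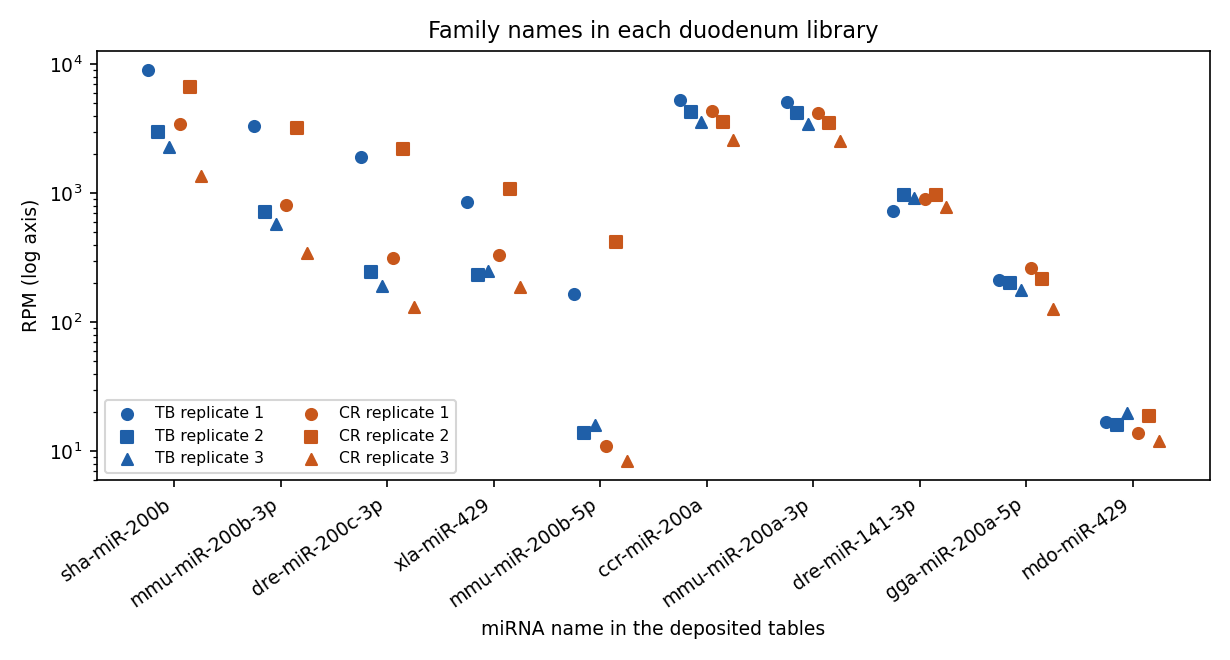
RPM on a log axis (y) of the most abundant names of each family miRNA and arm, and of mdo-miR-429 (x), with 1 point for each library, TB in blue and CR in orange. TB replicate 1 and CR replicate 2 lie above the other 4 libraries in the 5 names at the left, as for sha-miR-200b at 8991 and 6615 RPM, and within their range or next to it in the names at the right, as for dre-miR-141-3p at 732 and 970.1 RPM.

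The order of the members by level, each taken under its most abundant name, differed between libraries. In TB replicates 2 and 3 and CR replicates 1 and 3, miR-200a was first, miR-200b followed, and miR-141 came next. In TB replicate 1 and CR replicate 2, miR-200b was first, miR-200a followed, miR-200c came next and miR-141 was last. With mmu-miR-200b-3p in place of sha-miR-200b, miR-200a lay above miR-200b in every library. The ranks of miR-200c and miR-141 rest on zebrafish entries, with the limit on separating reads given above. One member was not tested against another. The ratio of miR-200b to miR-200a (of RPM + 1) was 1.70 in TB replicate 1 and 1.87 in CR replicate 2. It was 0.523 to 0.801 in the other libraries. For miR-141 to miR-200c the ratio was 0.383 and 0.438 in these libraries, and 2.89 to 5.95 in the others. That of miR-200c to miR-429 was 2.23 and 2.04, against 0.707 to 1.05 in the others. In every library miR-200a exceeded miR-141, by 3.31 to 7.20 times (of RPM + 1). All these levels are RPM without a correction for length, for names of about the same length.

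Of the 36 names, 17 passed the filter, in 16 distinct profiles. The other 19 names, in 12 profiles, had 2 to 56 reads in all 6 libraries together and at most 9.33 RPM in any library, reached by bfl-miR-200a (a lancelet entry) in CR replicate 2 from 14 reads. They were not tested. The profile shared by bfl-miR-200b and pmi-miR-200-3p had 3 to 7 reads in a library and cin-miR-200-3p (sea squirt) 1 to 8. The entries pbv-miR-200b-3p, dno-miR-200b-3p, bfl-miR-200c and the shared profile of dre-miR-429b and ipu-miR-429b had at most 2 reads in any library. These entries rest on too few reads to compare. In all, 21 of the 36 names had at least 1 read in every library.

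Between CR and TB, 0 of the 16 tested family profiles passed limma at a Benjamini-Hochberg adjusted p under 0.05 over the 662 tested names, and 0 had an unadjusted p under 0.05. The same held for all tested names, of which 0% passed at either threshold. The smallest unadjusted p over all of them was 0.050007 (limma), so the 0 of the family does not set it apart. edgeR and DESeq2 also gave 0 family profiles at either threshold, and each gave 5 of all tested names at an unadjusted p under 0.05. DESeq2 returned no adjusted p for at least mmu-miR-200b-5p, which was thus not judged at the adjusted threshold. The groups overlapped in every one of the 16 profiles, where 2.27% of all tested names had groups without overlap, 0.604% with every CR library above every TB library and 1.66% with every one below. The log2 fold change (CR over TB) was below 0 in 10 of the 16 profiles and above 0 in 6, with a median of -0.03, beside 0.05 over all tested names, of which 45.8% were below 0. These directions depend on the scaling. After rescaling by TMM factors (set on the bulk of the names), 16 of the 16 profiles were below 0, with a median of -0.21, while the median of all names moved from 0.05 to -0.11 and 61% of them were below 0. With edgeR 13 of the 16 were below 0 (56.3% of all names) and with DESeq2 12 (52.7% of all names).

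Among single members, ccr-miR-200a had a log2 fold change of -0.34 (standard error 0.41, 95% interval -1.34 to 0.66, adjusted p = 0.999 from limma). For sha-miR-200b it was -0.33 (standard error 0.80, interval -2.26 to 1.61). The narrowest interval of the main members other than miR-200a belonged to dre-miR-141-3p, at 0.02 (standard error 0.43, interval -1.02 to 1.07). Even this interval holds a change of 1 on the log2 scale in either direction, so this fit does not show that miR-141 stayed level. limma sets the width of an interval partly from the spread of the other tested names. The libraries of dre-miR-141-3p itself spanned a 1.34-fold range. The intervals of xla-miR-429 (-2.02 to 2.31 around 0.14) and dre-miR-200c-3p (-3.27 to 3.30 around 0.01) were wider. For mmu-miR-200b-5p the interval ran from -4.24 to 4.38 around 0.07.

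Without TB replicate 1 and CR replicate 2, the comparison rests on 2 libraries in each group. Then 15 of the 16 family profiles lay below 0, with a median of -0.22. The median over all tested names was -0.11, and 62.4% of them lay below 0. Several of the family profiles are names of one miRNA. An unadjusted p under 0.05 (limma) was reached by 0 of the 16 profiles and by 3.63% of all tested names, and an adjusted p under 0.05 by 0 of both. The smallest unadjusted p of the family was 0.105, for the shared profile of aca-miR-200b-5p and gga-miR-200b-5p at a log2 fold change of -0.60. That of mmu-miR-200b-5p turned from 0.07 to -0.57, that of dre-miR-141-3p from 0.02 to -0.17 and that of dre-miR-200c-3p from 0.01 to -0.08. For ccr-miR-200a it was -0.22 and for sha-miR-200b -0.27.

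**Figure D2:**
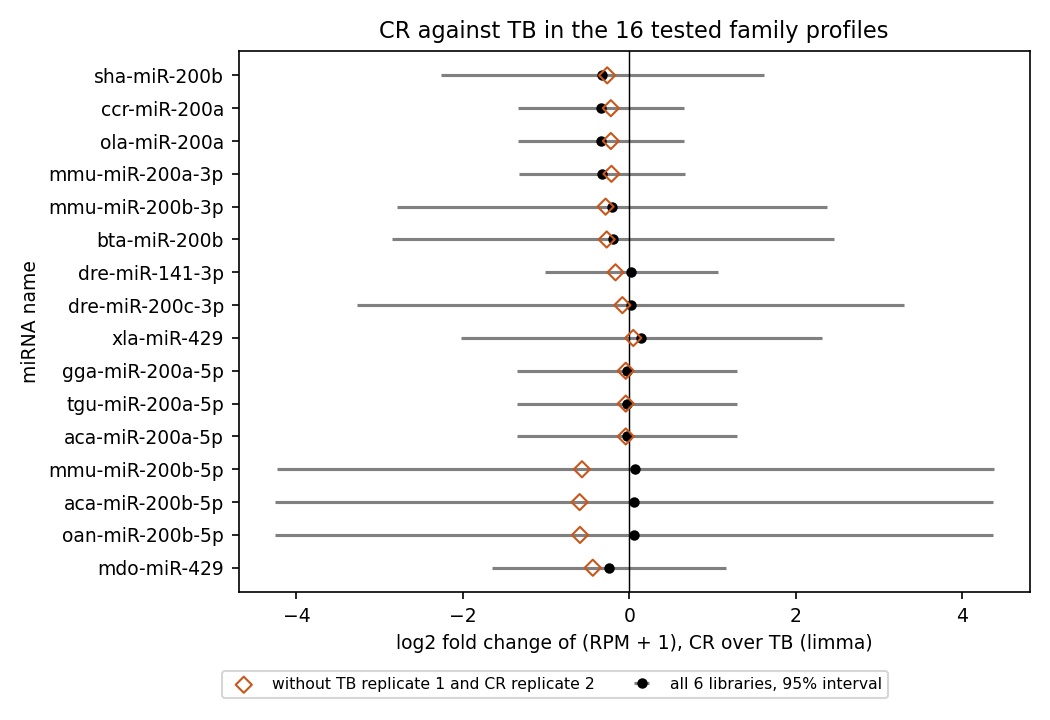
Log2 fold change of RPM + 1, CR over TB (x), for the 16 tested family profiles (y). Black points with bars are the limma estimate and its 95% interval over all 6 libraries, and open diamonds the estimate without TB replicate 1 and CR replicate 2. Every interval includes 0, and the intervals of miR-200b-5p are the widest.

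Ratios within a library were taken of RPM + 1 and, apart from this added 1, do not depend on its scaling. Between the lead names of the 5 main members, within the arms of miR-200a and miR-200b, and between the summed seed groups, 13 ratios were compared between CR and TB. The groups overlapped in each ratio (two-sided exact permutation tests, smallest p = 0.2, adjusted p = 1 over the 13 ratios). None could reach a p under 0.05, since 0.1 is the smallest that 3 libraries a group allow. The ratio of miR-200b to miR-200a was 1.70, 0.695 and 0.642 in TB and 0.801, 1.87 and 0.523 in CR. It exceeded 1 in TB replicate 1 and CR replicate 2 and in no other library. This holds for the lead names and depends on the names taken. The entry mmu-miR-200b-3p lay below mmu-miR-200a-3p in every library. They had 3314 against 5146 RPM in TB replicate 1 and 3197 against 3507 RPM in CR replicate 2. For the ratio of the lead names, the log2 difference between CR and TB was 0.01, with group SDs of 0.78 and 0.93.

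The summed lead names of miR-200b, miR-200c and miR-429 had 11762, 3451 and 2738 RPM in TB, against 4098, 9917 and 1684 RPM in CR, a 6.98-fold range. Those of miR-200a and miR-141 had 6010.4, 5257 and 4509 RPM in TB, against 5219, 4514 and 3399 RPM in CR, a 1.77-fold range. The ratio of the first sum to the second was 1.96 in TB replicate 1 and 2.20 in CR replicate 2, and 0.496 to 0.785 in the other 4 libraries. The groups overlapped in both sums (two-sided exact permutation tests, p = 0.7 for the first and p = 0.3 for the second, where 0.1 is the smallest possible). The log2 ratio of the CR mean to the TB mean was -0.19 and -0.26. A read counted under several of the summed names would enter a sum more than once, with the limit on separating names given above. The name dre-miR-200c-3p was at 21.3% of sha-miR-200b in TB replicate 1 and 33.5% in CR replicate 2. It was at 8.23% to 9.64% in the other 4 libraries.

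Within the first seed, the ratio of miR-200b to miR-200c was 4.70, 12.1 and 12.1 in TB, and 11.0003, 2.98 and 10.3 in CR. It was lowest in TB replicate 1 and CR replicate 2, with the limit on separating these names given above. Between the seeds, the lead name of miR-200a was 17.4 and 18.8 times that of miR-200c in TB replicates 2 and 3 and 13.7 and 19.7 times in CR replicates 1 and 3. It was 2.76 times in TB replicate 1 and 1.60 times in CR replicate 2. The ratio of miR-200b to miR-429, again within the first seed, varied less, from 6.09 in CR replicate 2 to 12.7 in TB replicate 2. It was 10.5, 12.7 and 9.23 in TB and 10.4, 6.09 and 7.28 in CR, with a log2 difference between CR and TB of -0.47 (two-sided exact permutation test, p = 0.2). The ratio of miR-200a to miR-429 ran from 3.26 in CR replicate 2 to 18.3 in TB replicate 2. Both lie in one cluster in vertebrate genomes.

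The arms behaved differently in miR-200a and miR-200b. Taken of RPM + 1, the 3p name of miR-200a exceeded its 5p name 24.1, 20.6 and 19.6 times in TB and 15.8, 16.3 and 20.1 times in CR. For miR-200b the factor of mmu-miR-200b-3p over mmu-miR-200b-5p, also of RPM + 1, was 19.9, 48.0 and 34.5 in TB. It was 67.2, 7.55 and 36.6 in CR. The added 1 lowers this factor most where the 5p name was low, down to 8.40 RPM in CR replicate 3. The lowest factors again belonged to TB replicate 1 and CR replicate 2. Their size depends on the name taken for the 3p arm. The name mmu-miR-200b-3p was at 23.4% to 48.3% of sha-miR-200b, whose name gives no arm. For miR-200a the 3p name was at 96.9% to 99.0% of ccr-miR-200a. In each of the 6 libraries the 3p arm was the more abundant one in both miRNAs.

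**Figure D3:**
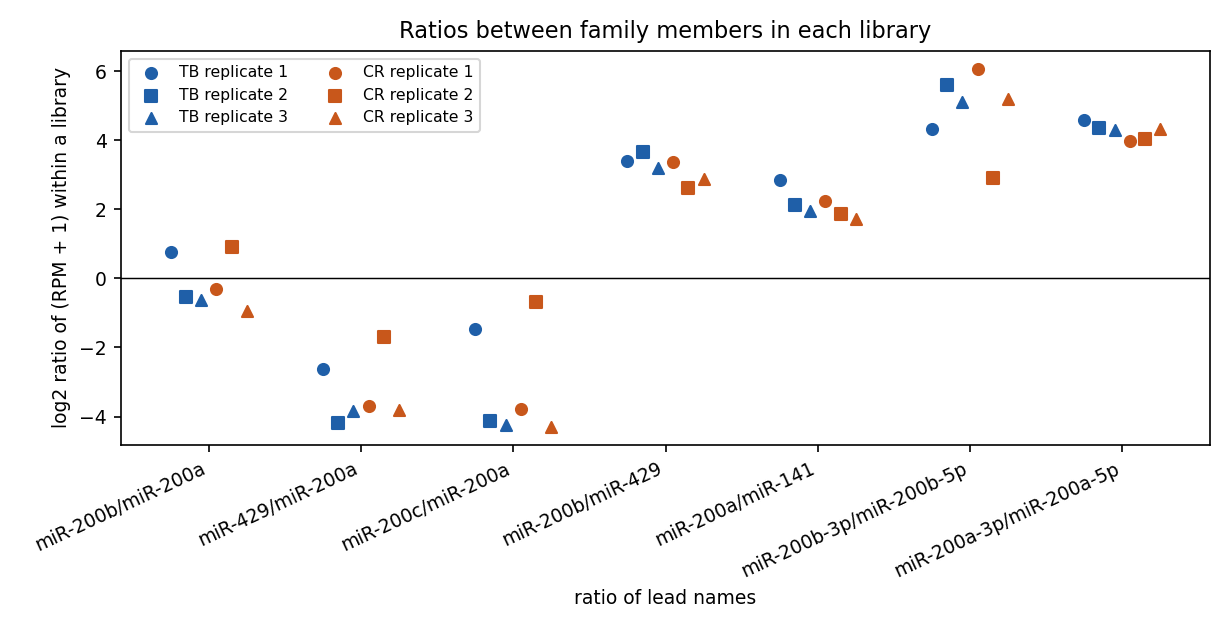
Log2 ratio of RPM + 1 within each library (y) for 7 pairs of lead names (x), with TB in blue and CR in orange. TB replicate 1 and CR replicate 2 lie above the other 4 libraries in the ratios of miR-200b, miR-429 and miR-200c to miR-200a and below them in the arm ratio of miR-200b, which was 19.9 and 7.55 there on the linear scale. The arm ratio of miR-200a stayed between 15.8 and 24.1.

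Marker miRNAs of several cell types were set beside the division of the libraries, and their part in it was not tested. Of all tested names, 57.3% were highest in both TB replicate 1 and CR replicate 2, and 21.8% were lowest in both. The 50% of smooth muscle and mesenchyme markers and 66.7% of striated muscle markers highest in both lay near the first share. All 3 markers of the intestinal epithelium were lowest in TB replicate 1 and CR replicate 2, beside the 21.8% of all tested names. Their sum was 32021 RPM in TB replicate 1, against 179483 RPM in TB replicate 3, and 24291 RPM in CR replicate 2, against 132851 RPM in CR replicate 3. Of the 6 markers of other epithelia (miR-203, miR-205, miR-31, miR-182, miR-183 and miR-96), 4 were highest in both libraries (66.7%, near the 57.3% of all tested names), while miR-203 and miR-182 were not. The sum of the 6 ran from 20.0 to 445 RPM in TB and from 16.4 to 385 RPM in CR. In TB replicate 1 miR-31 made up 394 of the 445 RPM. Among the 4, miR-96 had few reads, at 0.526 RPM in TB replicate 1, 2.67 RPM in CR replicate 2 and 0 in CR replicate 3. The markers were taken without the filter on reads that the tested names had passed. miR-375 of enteroendocrine cells was at 3716 RPM in TB replicate 1 and 7310 RPM in CR replicate 2, and at 233 to 338 RPM elsewhere, while miR-7 of the same list was lowest in both. Of the 4 markers of smooth muscle and mesenchyme 2 were highest in both libraries and 1 lowest, with sums of 120031 to 162662 RPM in TB and 93138 to 198333 RPM in CR. The one lowest was miR-143, which made up almost all of these sums. Both markers of the pancreas were highest there, with sums of 1.11 to 52.2 RPM in TB and 1.80 to 25.3 RPM in CR, and miR-122 of the liver had 328 RPM in CR replicate 2 and at most 7.36 RPM in any other library. Of the 3 markers of striated muscle 2 were highest in both libraries and 1 lowest (sums of 1187 to 3539 RPM in TB, 1101 to 4765 RPM in CR), with miR-206 at 0 in TB replicates 2 and 3 and CR replicate 1. The one lowest was miR-1, taken under its most abundant name, mmu-miR-1b-5p (a 5p arm). It had 3325 of the 3539 RPM in TB replicate 2. The endothelial miR-126 was lowest in both, at 469 and 639 RPM. So were 2 of 4 blood markers, 1 of them miR-144 at 0 and 0.666 RPM, near the floor. The blood marker miR-223 was at 0 in every library except CR replicate 3. Of the 2 neuronal markers 1 was highest in both libraries, miR-124, which was at 0 in the other 4. It had only 1.05 RPM in TB replicate 1 and 1.33 RPM in CR replicate 2, a few reads in each.

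The names whose pattern over the 6 libraries was most like that of sha-miR-200b, by the root mean square difference of centred log2(RPM + 1) values, were ami-miR-1662-5p (0.15), gga-miR-365b-5p (0.18), gga-miR-2184a-5p (0.18), gga-miR-106-3p (0.24) and gga-let-7g-5p (0.28). Of these, gga-miR-365b-5p had at most 5.33 RPM and gga-miR-2184a-5p at most 6.48 RPM, levels at which the added 1 flattens differences, and their ranges in RPM were wider than that of sha-miR-200b. The median over the 431 distinct profiles outside the family was 1.001. ami-miR-1662-5p had 220 RPM in TB replicate 1 and 179 RPM in CR replicate 2, and 45.7 to 107 RPM in the other 4 libraries. Within the family xla-miR-429 came nearest to sha-miR-200b, at 0.35, while ccr-miR-200a was at 0.70 and dre-miR-141-3p at 0.94. For ccr-miR-200a, a reference chosen after its values were seen, the nearest names outside the family were aca-miR-20b-5p and oha-miR-20b-5p, both at 0.05, and names of miR-17, at 0.08 to 0.09. This likeness over 6 libraries is a description.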

How the data were processed

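TruSeq small RNA libraries of 3 TB and 3 CR duodenum samples were sequenced on an Illumina HiSeq platform by the authors. The aligner, the build and the read filters are not given in the sources used here. The deposited values are RPM (reads of a name, scaled so that a library sums to 1000000), under a header of TPM, where the methods name FPKM. All values (100%, within 0.02 of a read) were whole multiples of 1 read, which gave back the reads. Intervals and limits from reads (a count of 0 allows 3 reads) cover counting error only.

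Names that reached 10 reads in 3 or more libraries were tested with limma 3.58.1 (trend) on log2(RPM + 1), which understates changes of low values, with Benjamini-Hochberg adjustment over all 662 names. edgeR 4.0.16 and DESeq2 1.42.0 on the recovered reads, TMM scaling, a pseudocount of 0.1, no filter, identical profiles counted once, the replicate number as a block and left-out libraries were alternatives. The scripts were tested on simulated data in which no library stood apart, so that test does not show which changes could be found in these libraries. R was version 4.3.3 and Python 3.11.15, with scipy 1.17.1, matplotlib 3.10.9, pandas 2.3.3 and numpy 2.4.6.

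The lead name of a miRNA and arm is the prefix with the highest mean, all family names are given by value or range, and the 5 names most like the leading one are named. The members, lists and alternatives were chosen with earlier results of these data known, including that TB replicate 1 and CR replicate 2 stand apart.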

Additional observations from a re-analysis of the deposited data

How the results depend on the processing

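In the family, 0 profiles passed an adjusted or an unadjusted p under 0.05 under every alternative run, although DESeq2 gave no adjusted p for at least mmu-miR-200b-5p. Over all tested names the number at an unadjusted p under 0.05 was 0 in limma, 5 with edgeR and TMM, 5 with DESeq2, 4 without a filter and 24 without both TB replicate 1 and CR replicate 2. It was 0 with each replicate left out. Between libraries of the same replicate number, the correlations of deviations from the group mean were -0.80, -0.91 and 0.91. They cannot show whether the numbers pair the libraries, since TB replicate 1 and CR replicate 2 stand apart under different numbers. The fit with the replicate block also gave 0 names at an unadjusted p under 0.05. The cause of these shifts was not tested.

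Signs near 0 turned. The log2 fold change of dre-miR-141-3p was -0.085 with edgeR, -0.045 with DESeq2, -0.16 with TMM-scaled RPM and -0.17 without both libraries. That of dre-miR-200c-3p was -0.32, -0.20, -0.17 and -0.085 under the same settings. It was -0.069 with edgeR and -0.044 with TMM-scaled RPM for xla-miR-429, and -0.13 with TMM-scaled RPM and -0.57 without both libraries for mmu-miR-200b-5p. Without both libraries the log2 ratios (CR minus TB) of miR-200b to miR-200a, miR-141 to miR-200c, miR-200b-3p to miR-200b-5p and the first seed group to the second were -0.044, -0.083, 0.28 and -0.017.

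With one replicate left out, the fold change ran from -0.86 to 0.28 for sha-miR-200b, from -1.07 to 0.58 for mmu-miR-200b-3p, from -1.70 to 1.20 for mmu-miR-200b-5p, from -1.13 to 1.06 for dre-miR-200c-3p, from -0.56 to 0.75 for xla-miR-429, from -0.10 to 0.11 for dre-miR-141-3p and from -0.25 to 0.28 for gga-miR-200a-5p. It stayed below 0 for ccr-miR-200a, mmu-miR-200a-3p and mdo-miR-429. The lowest or highest value came without TB replicate 1 or CR replicate 2 in each of the first 6. The log2 ratios ran from -0.49 to 0.47 for miR-200b to miR-200a, -0.82 to 0.37 for miR-200b to miR-141, -0.79 to 0.27 for miR-200b to miR-200c, -1.26 to 0.77 for miR-200a to miR-200c, -0.95 to 0.20 for miR-200a to miR-429, -1.16 to 1.09 for miR-141 to miR-200c, -0.86 to 0.52 for miR-141 to miR-429, -0.57 to 0.31 for miR-200c to miR-429, -0.95 to 0.63 for the arms of miR-200b and -0.56 to 0.59 for the seed groups. The log2 ratio of the group means ran from -1.05 to 0.76 for the sum of miR-200b, miR-200c and miR-429, and from -0.41 to -0.11 for that of miR-200a and miR-141.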
